A study of Homo sapiens with 6 samples.

Results

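PECAM1, HCLS1, AOC3, CCRL2 and OLR1 are 5 genes best known from endothelial and blood cells, and they were measured here in an epithelial lung cancer line with and without the EGFR inhibitor gefitinib. They are 5 of the 15376 coding genes in the expression table, and each was found by its symbol. They were chosen by the size of their difference between gefitinib and control libraries in these same values, so that contrast is given for them as a description, with no test. PECAM1, CCRL2 and OLR1 were lower under gefitinib by a log2 difference of 3.31 to 4.96 in size, and AOC3 and HCLS1 were higher by 4.85 and 5.95.

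The cells were PC9ER, a line of human non-small cell lung cancer that depends on the receptor tyrosine kinase EGFR and is resistant to gefitinib. The control group (n = 3 libraries) received the vehicle DMSO, and the gefitinib group (n = 3) received 1 µM gefitinib for the last 6 h. A single treatment protocol covers all libraries, with 72 h of DMSO in place of a Notch inhibitor and removal of serum overnight. All cells were grown beforehand in medium with 10% fetal calf serum. Whether the controls had serum overnight is not stated, and an effect of serum cannot be told apart from one of the drug. Nothing states that the libraries of a group are separate cultures, and p-values below then measure only the spread between these libraries, which may be technical. The series' design also names cells given a Notch inhibitor, alone or with gefitinib, and these were not analysed here.

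PECAM1, or CD31, is an immunoglobulin-like adhesion molecule of endothelial junctions, platelets and leukocytes. Through it cells bind each other, and its tail recruits the phosphatase SHP-2. HCLS1, or HS1, is the blood-cell relative of cortactin and ties kinase signals to branched actin. AOC3, or VAP-1, is a copper amine oxidase at the surface of endothelial cells, smooth muscle and fat that supports leukocyte adhesion. CCRL2 is an atypical chemokine receptor that holds the attractant chemerin at the cell surface, and OLR1, or LOX-1, is a C-type lectin scavenger receptor that takes up oxidised lipoprotein.

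HCLS1 and CCRL2 had a RefSeq promoter window (GRCh38.p14). The 250 bases before their RefSeq starts are shown because HCLS1 was higher under gefitinib and CCRL2 lower. The RefSeq starts differ from the ends of the gene spans given further below, and each stretch lies partly within its gene's span. Base positions of matches count from the RefSeq start. Capitals mark matches to any of 11 searched motifs on either strand.
HCLS1, chr3:121660904-121661153, minus strand: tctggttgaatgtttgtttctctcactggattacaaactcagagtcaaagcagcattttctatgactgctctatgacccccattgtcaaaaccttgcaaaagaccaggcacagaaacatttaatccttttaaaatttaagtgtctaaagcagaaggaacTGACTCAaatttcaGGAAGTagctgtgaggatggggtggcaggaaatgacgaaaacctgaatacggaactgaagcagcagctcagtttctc
CCRL2, chr3:46407009-46407258, plus strand: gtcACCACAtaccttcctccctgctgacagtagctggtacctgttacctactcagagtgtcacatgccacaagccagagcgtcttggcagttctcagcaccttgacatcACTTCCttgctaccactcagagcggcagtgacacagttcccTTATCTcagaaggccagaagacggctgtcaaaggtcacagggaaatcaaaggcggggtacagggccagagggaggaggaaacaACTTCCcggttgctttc
In HCLS1 the capitals are an AP-1 match (TGACTCA, beginning at base -91 from the start) and an ETS match (GGAAGT, at base -77). In CCRL2 they are 2 ETS matches at bases -141 and -17, a GATA match at base -100 and a RUNX match at base -247, all of them on the other strand. Of 35116 RefSeq windows of 300 bases, 250 before to 50 after a start, 22.8% held the ETS letters GGAAGT and 7.71% the AP-1 letters TGANTCA. The GATA letters AGATAA stood in 10.3% and the RUNX letters TGTGGT in 13.1%. The other motifs had no match in either stretch shown: TGACGTCA of the cAMP response element (in 1.85% of windows), the forkhead letters TGTTTAC (3.42%), the EGR letters GCGNGGGCG (9.43%), TATAAA (11.5%), the SP1 letters GGGCGG (45.0%), NF-kappa-B (5.91%) and SRF (1.29%). The GC content of the 300-base window was 45.3% for HCLS1 and 53.7% for CCRL2, against a median of 58.7% over all windows, and each window held 6 CpG pairs against a median of 14.0. CCRL2 has a further window at an inner start, in which only the TATAAA letters matched, on the other strand at base -28. These matches describe letters in a window and say nothing of a factor's binding.

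Library depth was 16211544 to 25639050 coding reads in the controls and 13674237 to 38581498 under gefitinib, with 13746 to 14567 genes detected per library. Values are normalised read counts, scaled by the authors to the same total of 18085800 in each library. Of 15229 genes with reads, limma placed 4312 higher and 3473 lower under gefitinib at an adjusted p below 0.05. That is 28.3% and 22.8% of all genes, or 51.1% together, and this is the background against which each count below is read. For 58.0% of genes the control and gefitinib values were fully apart, and 1.53% of genes had a log2 difference of 3 or more in size. All 5 genes described here lie in both of the latter sets, as their choice by this contrast entails.

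PECAM1 (ENSG00000261371, GRCh38 chromosome 17, 64319415 to 64413776, minus strand) gave 1231, 1129 and 1288 normalised counts in control libraries 1 to 3, and 126, 110.2 and 130.3 in gefitinib libraries 1 to 3. The 3 control libraries lay close together and far above the 3 gefitinib libraries, with no overlap. The mean went from 1216 ± 80.4 (SD, n = 3) to 122 ± 10.5 (SD, n = 3), a log2 difference of -3.31 ± 0.12 (SE) on the log2(value + 1) scale. It was the best-covered gene of the 5 in the low state, with 495 reads under gefitinib against 4091 in the controls. Per read of library depth the controls held 9.86 times as much (95% interval 8.98 to 10.8, counting error only). PECAM1 had the smallest log2 difference in size among the 5 and stood at rank 53 among the genes that were lower.

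CCRL2 (ENSG00000121797, chromosome 3, 46407163 to 46412997, plus strand) gave 1822, 1693 and 1734 normalised counts in the control libraries and 116, 105 and 80.6 in the gefitinib libraries. The controls differed from each other by at most 1.08-fold and the gefitinib libraries by at most 1.44-fold, and the groups did not overlap. The mean went from 1749.7 ± 65.8 to 101 ± 18.2 (SD, n = 3 each), a log2 difference of -4.12 ± 0.15 (SE) and rank 18 among the genes that were lower. The reads were 5897 in all controls and 376 under gefitinib, and per depth the controls held 18.7 times as much (16.9 to 20.8).

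OLR1 (ENSG00000173391, chromosome 12, 10158301 to 10172138, minus strand) gave 459.9, 293 and 303 normalised counts in the control libraries and 14.5, 9.94 and 7.03 in the gefitinib libraries. Control library 1 was 1.57 times the lowest control, and all 3 controls were far above the gefitinib libraries. The mean went from 352 ± 93.5 to 10.5 ± 3.79 (SD, n = 3 each), a log2 difference of -4.96 ± 0.31 (SE), the third largest among all genes that were lower. Under gefitinib it rested on 11, 11 and 15 reads, so the 2.07-fold spread among these libraries is a spread of few reads. Over the groups, 1229 reads stood against 37, a ratio per depth of 39.6 (28.6 to 56.5).

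AOC3 (ENSG00000131471, chromosome 17, 42851184 to 42858130, plus strand) gave 10.6, 12.3 and 9.65 normalised counts in the control libraries, from 15, 11 and 10 reads, and 279, 343 and 405 in the gefitinib libraries. All control libraries were low and alike, and the gefitinib libraries differed from each other by at most 1.45-fold without overlap with the controls. The mean went from 10.8 ± 1.33 to 343 ± 63.2 (SD, n = 3 each), a log2 difference of 4.85 ± 0.24 (SE) and rank 18 among the genes that were higher. With 36 reads against 1456, gefitinib libraries held 33.9 times as much per depth (24.4 to 48.6).

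HCLS1 (ENSG00000180353, chromosome 3, 121631399 to 121660927, minus strand) gave 4.23, 0 and 2.90 normalised counts in the control libraries, from 6, 0 and 3 reads. The gefitinib libraries gave 83.3, 219 and 258. The gene was near the limit of detection in every control, where 3 reads in control library 2 are worth 3.35 normalised counts, and gefitinib library 1 held less than the other gefitinib libraries, which reached 3.09 times its value. The mean went from 2.38 ± 2.16 to 187 ± 91.6 (SD, n = 3 each), a log2 difference of 5.95 ± 0.65 (SE), rank 8 among the genes that were higher. The reads were 9 against 855, a ratio per depth of 79.6 (41.8 to 175), so its size is the least exact of the 5.

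**Figure D1:**
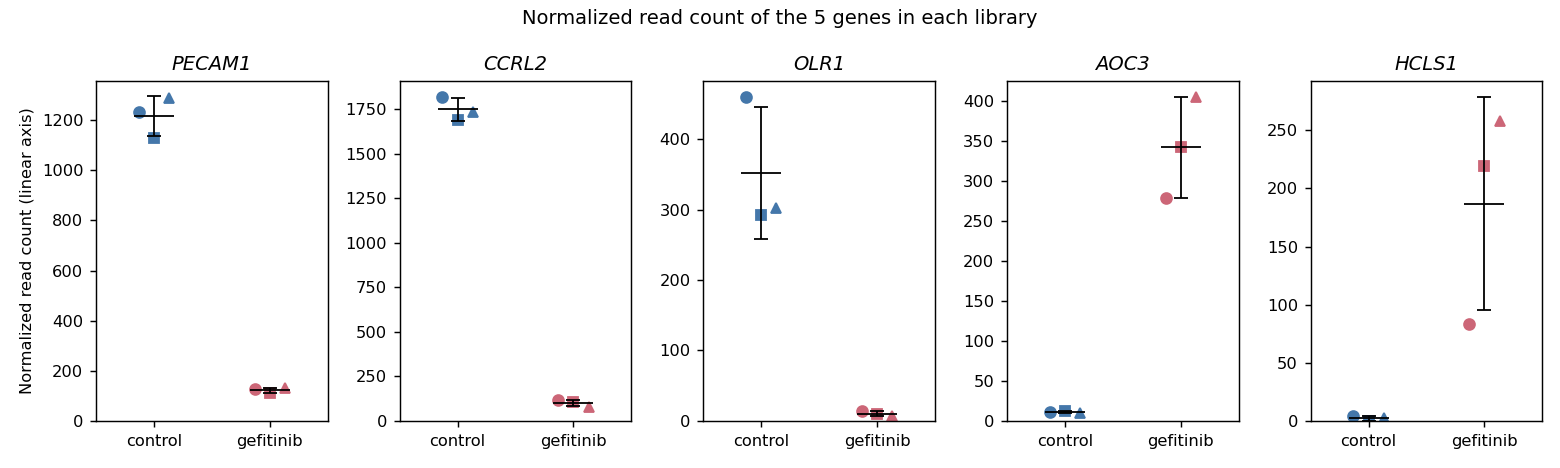
Normalised read count (linear axes from 0) of the 5 genes in the 3 control and 3 gefitinib libraries, with circles, squares and triangles for replicates 1, 2 and 3. Horizontal lines are group means and bars are ± 1 SD. In each panel the groups are apart, and the HCLS1 values under gefitinib run from 83.3 to 258.

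Genes were compared with each other on a length-corrected scale (RPKM, reads per kb of exon scaled to the coding reads of the library). On it the control order was CCRL2 at 31.6 ± 1.19 (SD), PECAM1 at 8.66 ± 0.573, OLR1 at 6.37 ± 1.69, AOC3 at 0.132 ± 0.0162 and HCLS1 at 0.0258 ± 0.0235. CCRL2 stood at the 90.3rd percentile of coding genes on this scale, while HCLS1 stood at the 14.0th. PECAM1 and OLR1 were neighbours that overlapped, since OLR1 in control library 1 (8.32) exceeded PECAM1 in control library 2 (8.05), and the other neighbours did not overlap. Under gefitinib the order became AOC3 at 4.19 ± 0.773, HCLS1 at 2.03 ± 0.994, CCRL2 at 1.82 ± 0.330, PECAM1 at 0.870 ± 0.0748 and OLR1 at 0.190 ± 0.0686. HCLS1 overlapped CCRL2 there, and its lowest library (0.905) also lay within the range of PECAM1 (0.786 to 0.929). AOC3 moved from the 22.1st to the 52.9th percentile and OLR1 from the 61.5th to the 22.7th. Even so, CCRL2 under gefitinib remained above the control level of AOC3 and HCLS1.

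**Figure D2:**
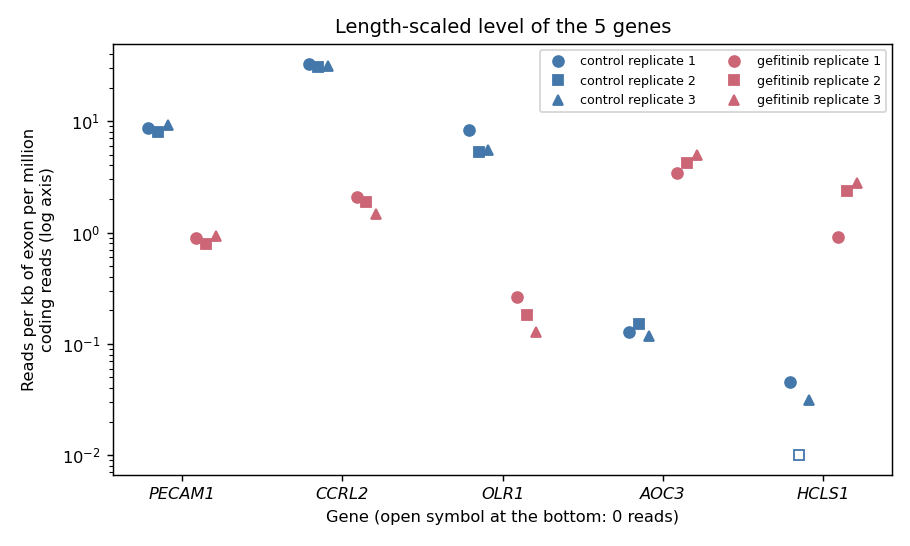
Length-corrected level (RPKM over coding reads, log axis) of the 5 genes in each of the 6 libraries, blue for control and red for gefitinib, with symbols for the replicates. The open square at the bottom is HCLS1 in control library 2, which had 0 reads and has no place on a log axis. The span from CCRL2 to HCLS1 among controls is far wider than that among gefitinib libraries.

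The genes whose centred log2 profile over the 6 libraries was closest were found among 12097 genes with a mean value of 10 or more. The measure was the root mean square of the log2 differences between the profiles. For PECAM1 the closest were TGFB2 (0.12), which encodes a TGF-beta ligand, HCAR1 (0.13), a lactate receptor, and C6orf223 (0.14). CCRL2 was closest to COL15A1 (0.09), a basement membrane collagen, then AMIGO2 (0.14) and NOG (0.19), a BMP antagonist. OLR1 was closest to INHBA (0.24), an activin subunit, then CCR2 (0.33) and HCAR3 (0.40). AOC3 was closest to FAM83C (0.16), FAM46C (0.18) and CDKL2 (0.19), of which FAM83C and CDKL2 had no reads in the controls. HCLS1 had the least close companions, SERPINI1 (0.39), SESN3 (0.59) and EGR1 (0.78). In mirror image, PECAM1 was closest to EXO5 (0.04), which went from 43.6 ± 2.81 to 457 ± 36.3 (SD, n = 3 each), then to ZC3H6 (0.14) and WDR47 (0.15). The mirror image of CCRL2 was closest to AVIL (0.20), PLAGL1 (0.23) and EFR3B (0.25). For AOC3 the mirrored genes were OLR1 (0.25), CCR2 (0.26) and INHBA (0.26), for OLR1 they were CDKL2 (0.21), FAM83C (0.24) and FAM46C (0.25), and for HCLS1 they were INHBA (0.93), CXCL8 (1.02) and OLR1 (1.05). With 2 groups of 3 libraries such closeness mostly restates the size of the group difference. For FAM83C and CDKL2, at 0 reads in the controls, that size depends on the 1 added before the logarithm. Over the alternative settings described at the end it was 2.93 to 8.38 for FAM83C and 2.91 to 8.40 for CDKL2. Both reached the mean of 10 through the gefitinib libraries only.

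The loci were then examined for the genes around them, whose choice used position only. Within 500 kb of the 5 starts lay 71 other coding genes, and all could be tested. Among them 17 rose and 22 fell, and 32 missed the threshold (limma, adjusted p below 0.05). That is 54.9% past the threshold against 51.1% of all genes, with a median log2 difference of -0.09 against 0.10 for all genes (-0.01 with genes at 0 reads in a group set at their bound). Around CCRL2, 1 of 13 rose and 6 fell. Around OLR1, 1 of 9 rose and 6 fell. Around AOC3, 8 of 31 rose and 8 fell. Around HCLS1, 3 of 7 rose and none fell, and around PECAM1, 4 of 11 rose and 2 fell.

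CCRL2 lies in a cluster of chemokine receptor genes, and CCR2, CCR1 and XCR1 there fell. CCR2, the receptor for the monocyte attractant CCL2, starts 53.4 kb from CCRL2 and gave 82.5, 56.9 and 60.8 normalised counts in the controls and 1.32, 1.81 and 1.41 under gefitinib. The groups were far apart, and the log2 difference was -4.74 ± 0.32 (SE; limma adjusted p = 4.95e-06), from 231 against 6 reads. CCR1, 199 kb away, went from 50 reads to 1, a ratio per depth of 59.6 (10.2 to 2402), with limma adjusted p = 8.77e-05. XCR1, 379 kb away, had a log2 difference of -2.72 ± 0.43 (limma adjusted p = 0.000600; 64 against 8 reads). CCR3, 244 kb away, gave 61.0 ± 8.34 and 42.3 ± 13.3 (SD, n = 3 each) and did not pass (log2 difference -0.55 ± 0.29, limma adjusted p = 0.140). On the other side ALS2CL, 287 kb away, fell from 770.4 ± 112 to 194 ± 10.4, and its neighbour TMIE had 15 control reads and 0 under gefitinib, at least 5.96-fold lower against a floor of 3 reads over the group (limma adjusted p = 0.00730). FYCO1, 411 kb away, was the gene that rose (0.47 ± 0.12), a call lost without gefitinib library 2 (limma adjusted p = 0.0600). CCRL2 shares no 50-base word with any other gene.

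OLR1 lies in the natural killer gene complex among C-type lectin genes. TMEM52B, a membrane protein gene on the opposite strand, starts 1.60 kb from the start of OLR1 and gave 27.5, 12.3 and 20.3 normalised counts in the controls and 1.32, 0 and 0 under gefitinib. It fell with 71 against 1 read, a ratio per depth of 84.7 (14.7 to 3392), limma adjusted p = 0.000132. The spans of TMEM52B and OLR1 overlap by 1597 bases but share 0 exon bases. The sources used here do not give whether counting was by strand, so the origin of reads in the shared stretch is uncertain. CLEC7A, the beta-glucan receptor Dectin-1, 41.9 kb away, fell from 31 reads to 2, a ratio per depth of 18.5 (4.70 to 159), limma adjusted p = 0.00417. CLEC2B, 302 kb away, fell from 23.8 ± 5.86 to 6.86 ± 2.72 (SD, n = 3 each; limma adjusted p = 0.00471). KLRD1, which encodes CD94 of natural killer cell receptors, went the other way, with 0 reads in all controls and 6.61, 4.52 and 6.09 normalised counts under gefitinib. It was at least 6.43-fold higher against the floor of 3 reads over the group (23 reads; limma adjusted p = 0.000230). CD69, an activation marker of lymphocytes, had 9 reads against 0 and was called lower at limma adjusted p = 0.0145, a call lost without control library 2 (0.0559), without control library 3 (0.0577) and with DESeq2 (0.0721). GABARAPL1, an autophagy gene 40.3 kb away, fell by 0.75 on the log2 scale, and MAGOHB fell by 0.89. CLEC12A and EIF2S3L did not pass.

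AOC3 follows its closest relative AOC2 on the same strand, with AOC2 (42844600 to 42850707) ending 476 bases before AOC3 begins. AOC2, the retina-type copper amine oxidase, gave 40.9, 51.3 and 43.4 normalised counts in the controls and 391, 529.6 and 580.3 under gefitinib. Its groups were apart, and it rose by a log2 difference of 3.43 ± 0.20 (SE; limma adjusted p = 2.73e-06) with 149 against 2120 reads. The genes share 0 exon bases in the annotation, and their coding sequences are identical at 73.2% of 2236 aligned bases. AOC3 shares 16.9% of its 50-base words with the pseudogene AOC4P and AOC2 shares 0, so some reads of AOC3 could be placed at AOC4P as well, and its counts are uncertain to that extent. The next genes had other values: BECN1, an autophagy gene 17.8 kb away, gave 1988 ± 191 and 2031 ± 81.2 (limma adjusted p = 0.770), and PSME3, a proteasome activator gene 26.8 kb away, fell from 5102 ± 279 to 2855 ± 143 (limma adjusted p = 2.81e-05). WNK4, a kinase gene of salt transport 70.5 kb away, rose from 95.7 ± 21.8 to 349.6 ± 83.3 (limma adjusted p = 0.000166), and FAM134C, a receptor of endoplasmic reticulum autophagy, rose by 1.00 ± 0.08.

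The mast cell receptor gene MILR1, 35.3 kb from PECAM1, gave 88.9, 66.9 and 77.2 normalised counts in the controls and 86.0, 109 and 85.8 under gefitinib and did not pass (limma adjusted p = 0.341). DDX5, an RNA helicase gene, rose from 7156 ± 495 to 13429 ± 2011, while SMURF2, a ubiquitin ligase of TGF-beta signalling, fell from 3652 ± 368 to 1864 ± 216. ERN1, a sensor of unfolded protein, rose by 0.60 ± 0.10 (limma adjusted p = 0.000919). The endothelial gene ICAM2, 393 kb away, had 3 reads against 12 and did not pass (limma adjusted p = 0.0955). Near HCLS1, POLQ, a DNA polymerase gene, rose from 203 ± 15.9 to 632 ± 323, with gefitinib library 1 at 274 and libraries 2 and 3 at 721 and 901. Gefitinib library 1 was the least like its group over genes at large. Its mean squared deviations from libraries 2 and 3 were 11.34 and 22.43 times counting error, against 5.357 between libraries 2 and 3. Control library 1 stood further from its own group. Its deviations from control libraries 2 and 3 were 30.32 and 63.84 times counting error, against 8.221 between control libraries 2 and 3. GOLGB1 of the Golgi rose by 0.35 ± 0.07 and the peptide transporter SLC15A2 by 1.47 ± 0.40 (limma adjusted p = 0.0125). CD86, a T cell co-stimulator 394 kb away, had 0 control reads and 5 under gefitinib and did not pass (limma adjusted p = 0.148).

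**Figure D3:**
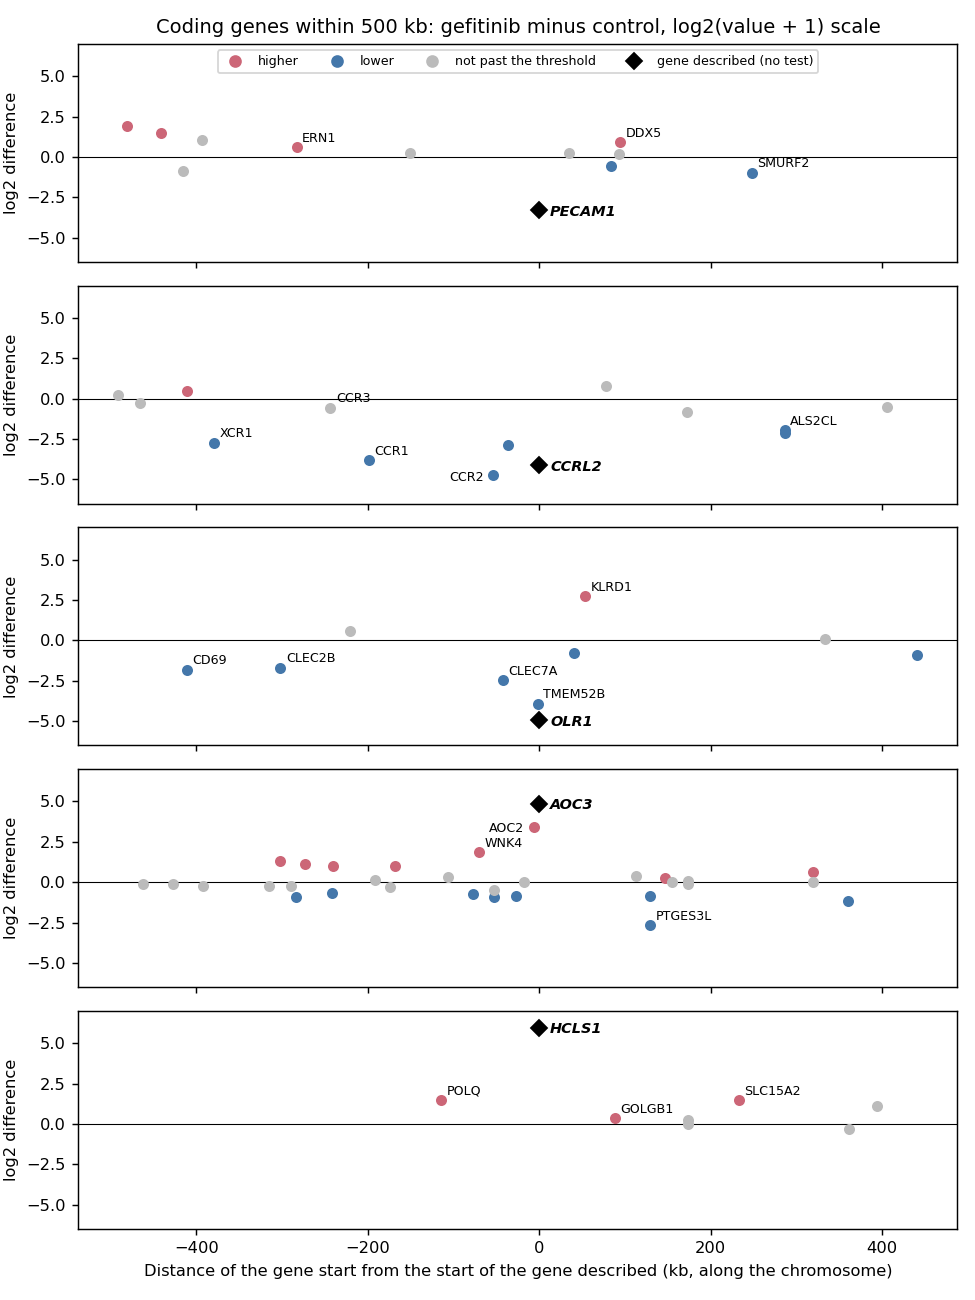
Log2 difference (log2(value + 1), gefitinib minus control) of coding genes within 500 kb of each of the 5 genes, against the distance between gene starts in kb. Red points rose, blue points fell and grey points did not pass the limma threshold of 0.05, and the black diamond is the gene described, with no test. CCR2, CCR1 and XCR1 lie low beside CCRL2, TMEM52B lies beside OLR1, and AOC2 lies beside AOC3.

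The cell type label was checked with markers. Of 30 endothelial marker genes, 16 were in the table, and 8 of these had 30 reads or fewer in all libraries together. Of the 16, 1 rose, 1 fell and 14 did not pass, 12.5% past the threshold against 51.1% of all genes, and their median log2 difference was 0.18 (-0.25 with genes at 0 reads at their bound, without genes of 3 reads or fewer in both groups). The endothelial cadherin CDH5 gave 50.5 ± 9.09 and 33.5 ± 5.09 (limma adjusted p = 0.101), and von Willebrand factor, VWF, 8.64 ± 3.72 and 5.18 ± 3.32 (limma adjusted p = 0.288; SD, n = 3 each). FLT1, TEK, TIE1, EMCN, MMRN1 and TAL1 had 0 reads in the controls and at most 4 under gefitinib. ESAM, an endothelial and platelet adhesion molecule, rose from 147 ± 25.7 to 451 ± 61.6 (limma adjusted p = 6.64e-05), and NOS3, endothelial nitric oxide synthase, fell from 45 reads to 6 (limma adjusted p = 0.00409). The NOS3 control values were 7.05, 7.81 and 27.0, so most control reads came from control library 3. Its log2 difference was -2.65 to -1.75 with 1 library left out. The rising count was 2 without control library 2 or without gefitinib library 1, and the falling count was 3 without control library 1 and 0 among the 6 genes that edgeR's count filter or a mean of 10 left. The summed level of the list was 882 to 1366 in the controls and 1294 to 1474 under gefitinib. KDR, CD34, the leukocyte marker CD53 and the lectin gene CLEC1A were not analysed here.

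Of 35 leukocyte marker genes, 29 were in the table, 28 were tested and 15 had 30 reads or fewer. Among the tested genes 4 rose, 6 fell and 18 did not pass, 35.7% past the threshold, with a median of -0.06 (-0.38 with bounds). PTPRC, which encodes the pan-leukocyte antigen CD45, had 1 read in each group, and SPI1 had 0 and 3. The summed level was 21461 to 23651 in the controls and 11764 to 13160.1 under gefitinib, most of it LCP1, an actin bundling protein also common in carcinoma lines, which fell from 17882 ± 1303 to 8952 ± 749.5 (limma adjusted p = 2.26e-05). NCF4, a subunit of the phagocyte oxidase, fell from 85.5 ± 14.2 to 23.2 ± 6.45 (limma adjusted p = 0.000510). FCER1G, a signalling chain of Fc receptors, rose from 7 reads to 98 (limma adjusted p = 0.000112). CD14, CD79B and WAS also rose, from 1, 0 and 3 reads to 30, 13 and 26, and of these CD79B (0.0914) and WAS (0.0719) were not called by DESeq2. The rising count was 1 among the 13 genes left by edgeR's filter or a mean of 10, and 2 with DESeq2. Of the epithelial markers, the adhesion molecule EPCAM gave 9764 ± 738 and 12017 ± 333, and the cadherin CDH1 gave 12180.2 ± 252 and 10609 ± 327. The lung markers NAPSA (70 and 61 reads in the control and gefitinib groups) and SFTPB (25 and 64 reads) were sparse. Of 11 tested epithelial markers 1 rose, 6 fell and 4 did not pass. That is 63.6% past the threshold against 51.1% of all genes, with a median of -0.48 against 0.10. The largest falls were in KRT19 (log2 difference -1.07), KRT7 (-0.88), CLDN4 (-0.77) and KRT18 (-0.66). Control library 1 was the lowest control for each of these genes. KRT19 gave 12385, 21621 and 25456 in control libraries 1 to 3, and its log2 difference was -1.38 to -0.86 with 1 library left out. The rise of EPCAM (limma adjusted p = 0.0106) was lost with TMM factors (0.0601), DESeq2 size factors (0.0614), edgeR (0.0520) and DESeq2 (0.0823). The fall of CDH1 (limma adjusted p = 0.0364) was lost without control library 2 or 3 and without gefitinib library 2 or 3. In bulk RNA, fewer cells of a type and less RNA per cell cannot be told apart, and the part of the marker genes in the values of the 5 genes was not tested.

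Adhesion molecules and partners of PECAM1 moved in both directions: of 24 tested genes 4 rose, 9 fell and 11 did not pass. That is 54.2% past the threshold, with a median of -0.03 (-0.19 with bounds). The falling count was 5 without control library 2 and 4 without gefitinib library 2. PVR, the poliovirus receptor that takes part in leukocyte passage, fell from 5474 ± 378 to 1795 ± 251 (limma adjusted p = 5.13e-06). ICAM1, the ligand of leukocyte integrins, fell from 796 ± 92.1 to 281 ± 84.4 (limma adjusted p = 0.000180). FYN, a Src family kinase that phosphorylates the PECAM1 tail, rose from 712 ± 56.2 to 1294 ± 46.7 (limma adjusted p = 7.21e-05). LYN, of the same family, had a log2 difference of -0.26 ± 0.09 (limma adjusted p = 0.0397), a call lost without control library 2. YES1, also of this family, did not pass (limma adjusted p = 0.445). F11R, the junctional adhesion molecule JAM-A, rose from 3132 ± 243 to 4435 ± 110.0 (limma adjusted p = 0.000647). Of the phosphatases in the list, PTPN6, encoding SHP-1, rose by 0.78 ± 0.15. PTPN11, encoding SHP-2, had a log2 difference of -0.36 ± 0.11 (limma adjusted p = 0.0202). It did not pass without control library 2, gefitinib library 2 or gefitinib library 3. INPP5D, encoding SHIP-1, had a log2 difference of -0.90 ± 0.26 (limma adjusted p = 0.0158). Its call was lost without control library 2, gefitinib library 1 or gefitinib library 2.

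Of 27 tested genes that encode partners of HCLS1 or act in branched actin, 5 rose, 6 fell and 16 did not pass, 40.7% past the threshold, with a median of -0.01 (-0.02 with bounds). CTTN, the cortactin gene whose coding sequence is identical to that of HCLS1 at 70.0% of 1435 aligned bases, fell from 7515 ± 807 to 5122 ± 112 (limma adjusted p = 0.000805), so it was lower where HCLS1 was higher. HAX1, a binding partner of HCLS1, rose from 623 ± 14.2 to 1136 ± 113 (limma adjusted p = 0.000112). The actin regulators CORO1C (-0.96 ± 0.10), DBNL (-1.02 ± 0.14) and the ARP2/3 subunit ACTR3 (-0.82 ± 0.10) fell. SYK, a kinase that phosphorylates HCLS1, gave 1214 ± 79.0 and 1201 ± 64.4 (limma adjusted p = 0.909). HCLS1 shares no 50-base word with CTTN or any other gene.

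Of 11 tested amine oxidases besides AOC3, 2 rose, 5 fell and 4 did not pass, 63.6% past the threshold, with a median of -0.02 (-0.02 with bounds). AOC2, described above, had the largest rise. LOXL3, a lysyl oxidase of collagen crosslinking, fell from 121 ± 13.7 to 14.3 ± 3.89 (log2 difference -3.02 ± 0.28, limma adjusted p = 2.83e-05). MAOA, the mitochondrial monoamine oxidase, fell from 370.4 ± 16.5 to 255 ± 6.77 (limma adjusted p = 0.00487), and SMOX, spermine oxidase, rose from 279 ± 87.1 to 499 ± 18.1 (limma adjusted p = 0.00789). IL4I1, an amino acid oxidase, had 7 control reads and 0 under gefitinib, at least 2.78-fold lower (limma adjusted p = 0.00476), and was not called by DESeq2 (adjusted p = 0.150).

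In the chemokine system around CCRL2, 12 of 26 tested genes fell, 3 rose and 11 did not pass. That is 57.7% past the threshold, and the median of -0.92 (-0.94 with bounds) compares with 0.10 for all genes. CXCL8, or interleukin-8, gave 190.5, 165 and 190.2 normalised counts in the controls and 14.5, 3.61 and 3.75 under gefitinib (log2 difference -4.71 ± 0.46, limma adjusted p = 3.43e-05). CXCL10, an attractant of T cells, fell from 104 reads to 4 (limma adjusted p = 7.38e-05), and CXCL16, the gene with the most reads in the list, fell from 1463 ± 81.2 to 668 ± 94.6 (limma adjusted p = 4.52e-05). The atypical receptor ACKR2 fell from 49.0 ± 4.43 to 21.5 ± 6.59 (limma adjusted p = 0.00792). GPR1, another chemerin receptor, gave 38.2 ± 1.38 and 39.0 ± 9.94 (limma adjusted p = 0.998). Chemerin itself, RARRES2, and its signalling receptor CMKLR1 were not analysed here. The genes that rose were sparse: CCR4 (0 against 29 reads, at least 8.10-fold higher), CX3CR1 (11 against 49 reads) and CXCL5 (3 against 16 reads). The call of CXCL5 (limma adjusted p = 0.0257) was lost with DESeq2 (0.155) and without control library 1, 2 or 3 or gefitinib library 1 or 2. The rising count of the list was 1 among the 12 genes left by edgeR's filter and 0 among the 10 with a mean of 10 or more.

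Of 22 tested scavenger, lipoprotein and lectin receptors akin to OLR1, 4 rose, 7 fell and 11 did not pass. The share past the threshold was close to the 51.1% of all genes, so by this count the list did not stand apart from genes at large. Of the 22 genes, 9 had 30 reads or fewer in all libraries together. The median was 0.08 (0.03 with bounds). The falling count was 4 without control library 2, and the rising count was 2 among the 11 genes left by edgeR's filter. LRP8, a receptor of apolipoprotein E, fell from 3687 ± 31.8 to 2188 ± 117 (limma adjusted p = 3.92e-05). SCARF1, an endothelial scavenger receptor of modified lipoprotein, rose from 10 reads to 103 (log2 difference 2.64 ± 0.48, limma adjusted p = 0.00143). The fatty acid translocase CD36 gave 14 against 8 reads (limma adjusted p = 0.629).

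**Figure D4:**
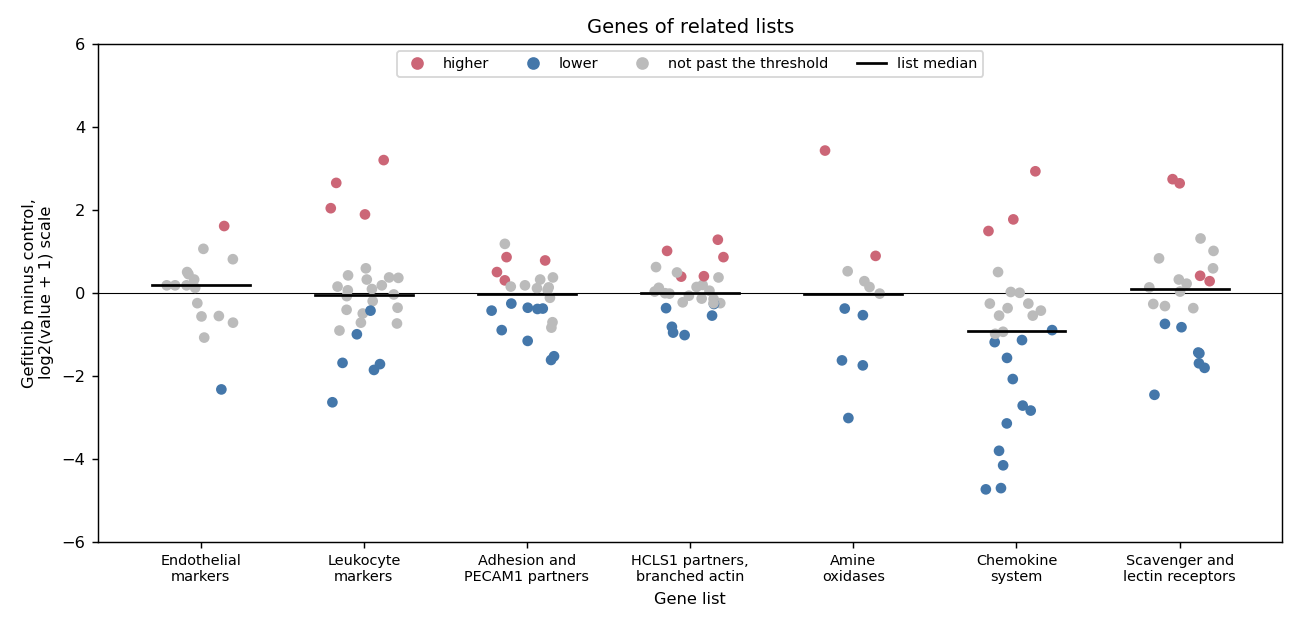
Log2 difference (log2(value + 1), gefitinib minus control) for each tested gene of 7 lists, with red for genes that rose, blue for genes that fell and grey for genes not past the limma threshold of 0.05. Black bars are list medians, from -0.92 for the chemokine system to 0.18 for endothelial markers.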

How the data were processed

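Total RNA of 3 control and 3 gefitinib libraries, grouped by title, was sequenced with standard Illumina libraries, per the labels' protocols. STAR, HTSeq and the GRCh38 build stand in the submitters' processing notes, without versions. The values are a deposited signal: counts per gene, brought by the authors to 1 total in all libraries. Divided by the step of its library, each value (100%) was a whole number of reads within 0.01. Of 15376 rows, 147 were 0 throughout. Another deposited table holds 6 columns of counts that match no label, and these were not used. IDs were single for 15356 rows, and positions are from GENCODE release 29. In the gene list 27 symbols had been turned into dates, and none of these is named.

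The 5 genes, the gene lists and the motifs were chosen with earlier results of these data known. The test was the trend fit of limma 3.58.1 under R 4.3.3, applied to log2(value + 1), two-sided. P-values were adjusted by Benjamini and Hochberg's method across 15229 genes, and calls need an adjusted p below 0.05. The log2(value + 1) scale understates the change of low genes. The limma step was also run on simulated data with known changes. Read ratios carry exact 95% intervals that cover counting error only. A gene at 0 reads in a group was set against a floor of 3 reads over the group. Lengths are those of merged exons. Named genes are the 5, up to 4 genes of each list and of the neighbours with the smallest p, defining markers, closest paralogs and closest profiles. Further names were added with their values in view, to complete a count or a locus. Alternatives were pseudocounts of 0.5 and 5, a mean of 10 or more, TMM and DESeq2 size factors, edgeR 4.0.16 and DESeq2 1.42.0 on the recovered reads, a replicate block, and leaving out each library. RefSeq promoter windows were matched for 2 of the 5 genes. Some named genes are not reported here.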

Additional observations from a re-analysis of the deposited data

How the results depend on the processing

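The log2 differences of the 5 genes kept their sign in all 75 alternatives and stayed within 1 SD in 72. The genes were chosen for large differences in this contrast, so a kept sign was largely entailed and adds no support. With a pseudocount of 5, HCLS1 gave 4.60, AOC3 4.44 and OLR1 -4.52, as a larger pseudocount shrinks genes with few reads in a group. Leaving out each library in turn gave -3.36 to -3.24 for PECAM1, -4.23 to -3.97 for CCRL2, -5.20 to -4.73 for OLR1, 4.72 to 4.99 for AOC3 and 5.22 to 6.45 for HCLS1. Of 7785 calls over all genes, 55.4% were higher, against 50.9% with TMM factors and 49.7% with edgeR or DESeq2, while the median of all genes went from 0.10 to 0.05 with TMM factors. With a mean of 10 or more, 0 endothelial markers fell, 1 leukocyte marker rose and 0 chemokine genes rose. With edgeR these counts were 0, 1 and 1, and 2 scavenger and lectin receptors rose, with fewer genes tested in each list. With DESeq2 2 leukocyte markers rose. Leaving out a library gave 1 to 2 endothelial markers rising and 1 to 3 falling, 4 to 9 adhesion genes falling and 4 to 8 scavenger and lectin receptors falling. PTPRC, with 1 read in each group, gave -0.19 with edgeR without a filter, -0.08 with DESeq2 and between -0.26 (without gefitinib library 1) and 0.41 with 1 library left out, and the cause was not tested. Of 128 other genes with alternatives, 29 lost their call in 1 or more. The 128 include genes such as PTPRC, SPI1, CDH5 and VWF that had no call to lose. A gene filtered out of an alternative was not counted as losing its call there. Same-numbered libraries deviated together with correlations of 0.127, 0.0444 and 0.0947, so the numbers were not taken as pairs. A replicate block gave 4438 genes higher and 3552 lower, and took the call from CD38 (adjusted p = 0.0590), LCP2 (0.0502), LOX (0.0555) and CNTNAP1 (0.0889). Depth limits HCLS1 and AOC3 in the controls, with 9 and 36 reads, and OLR1 under gefitinib, with 37.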
